A study of Mus musculus with 16 samples.

Results

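Aortic valves of 7 mice that lack apolipoprotein E (ApoE) were compared with those of 8 mice in which Apoe is intact, and the difference was taken over all genes with transgene status held as a block. The members were chosen by genotype alone: the 4 HC and 3 named HC/HT libraries against the 4 CON and 4 HT libraries, 15 of 16 samples in the labels. A single unlabelled column of the table was not used. HC stands for the ApoE knockout used as a model of high cholesterol. HT stands for transgenic mice that overexpress the human renin and angiotensinogen genes as a model of hypertension. HC/HT mice carry both changes, and CON mice carry neither. All mice were on the C57BL/6J background. The transgenes are carried on both sides of the comparison, in 3 of 7 knockout and 4 of 8 intact libraries. The knockout libraries came from 5 females and 2 males, and the intact ones from 3 females and 5 males. No age, diet, transgene promoter or kinship of the controls is stated in the labels, which number the libraries as replicates without saying whether a library pooled valves, so p-values measure the spread between these samples.

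ApoE is a protein of lipoprotein particles that liver receptors bind, and mice without it keep remnant particles and cholesterol in their blood. Macrophages that take up such particles store the cholesterol as esters in lipid droplets, digest it in lysosomes and export part of it through the transporters ABCA1 and ABCG1, which the sterol sensor LXR switches on. An aortic valve leaflet is built of interstitial cells in a matrix of collagen, proteoglycan and elastin under a layer of endothelium, with some resident macrophages, and its root joins arterial smooth muscle and heart muscle.

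The promoters of 4 genes that rose in the knockout valves are shown because they match patterns searched for transcription factors of macrophages and the lysosome. They are RefSeq sequences of the GRCm38.p6 build, each a window around 1 annotated start, written 5′ to 3′ on the strand of the gene. Capitals mark TGANTCA in Trem2 (chr17:48346151-48346450, plus strand), Gpnmb (chr6:49036268-49036567, plus strand) and Cd68 (chr11:69666121-69666420, minus strand). AP-1 factors bind this pattern with C or G at N, as it stands in Gpnmb and Cd68. In Trem2 N is A, so that match is not the usual AP-1 site. In Abca1 (chr4:53159846-53160145, minus strand) capitals mark CACGTG, bound by the MITF and TFE factors.
Trem2: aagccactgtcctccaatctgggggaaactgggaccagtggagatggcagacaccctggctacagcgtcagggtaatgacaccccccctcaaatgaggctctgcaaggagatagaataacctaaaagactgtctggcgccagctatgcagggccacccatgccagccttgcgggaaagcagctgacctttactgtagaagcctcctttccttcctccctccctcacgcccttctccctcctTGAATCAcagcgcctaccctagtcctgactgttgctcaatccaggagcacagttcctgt
Gpnmb: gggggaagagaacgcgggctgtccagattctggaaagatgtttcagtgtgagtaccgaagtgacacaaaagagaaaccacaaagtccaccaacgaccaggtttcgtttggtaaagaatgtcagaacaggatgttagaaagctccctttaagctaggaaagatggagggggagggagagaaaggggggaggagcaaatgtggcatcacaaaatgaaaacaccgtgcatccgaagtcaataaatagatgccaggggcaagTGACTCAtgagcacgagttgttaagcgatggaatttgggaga
Cd68: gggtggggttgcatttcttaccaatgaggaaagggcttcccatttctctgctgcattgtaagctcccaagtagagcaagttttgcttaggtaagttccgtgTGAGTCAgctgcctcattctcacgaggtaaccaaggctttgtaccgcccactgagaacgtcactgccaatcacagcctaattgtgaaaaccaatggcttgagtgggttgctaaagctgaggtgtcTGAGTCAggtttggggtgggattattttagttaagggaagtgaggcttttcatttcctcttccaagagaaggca
Abca1: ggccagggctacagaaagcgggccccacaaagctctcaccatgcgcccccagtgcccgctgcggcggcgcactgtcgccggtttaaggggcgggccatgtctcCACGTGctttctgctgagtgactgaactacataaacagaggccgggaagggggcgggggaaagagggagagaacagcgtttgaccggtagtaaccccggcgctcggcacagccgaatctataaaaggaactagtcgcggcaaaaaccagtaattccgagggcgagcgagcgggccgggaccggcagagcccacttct
Counting the first transcribed base as 1, the TGANTCA match began at position -9 in Trem2, at 9 in Gpnmb and at -149 and -24 in Cd68, and the CACGTG match at -147 in Abca1.

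Both motifs read the same on either strand, and they could share letters at their ends, since TGANTCA ends in the letters that begin CACGTG. Of all 32851 promoters in the table, 7.81% held TGANTCA and 7.15% held CACGTG. Among genes with 1 promoter each counted, TGANTCA stood in 24 of 157 genes that rose in the knockout (15.3%) and in 560 of the 10911 tested genes (5.13%). Any letter was taken at N, so these counts include sites other than the usual AP-1 site. CACGTG stood in 11 of those 157 genes (7.01%) and in 9.88% of the tested ones. GAGGAA, the core bound by PU.1, was searched on both strands and was present in 78 of the 157 (49.7%) and in 26.8% of the tested genes. The CArG box of serum response factor was found in 1.91% and 1.31%. These are matches of letters in a window of fixed length, given as a description, and no factor was measured.

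Each library listed between 16006 and 17608 genes above 0 out of 20992. Values are the authors' normalised counts times 1 common factor that sets the median library total to 1000000, called units here. All deposited totals lie within 10207928 and 10210305, so they do not carry the depth of a library. The spacing of low values places the relative depth, in units of 1000000 reads, at 4.51 to 5.90 in the knockout and 4.50 to 6.45 in the intact libraries, which overlap. The 4 most abundant rows, among them a ribosomal RNA precursor, took 35.0% to 54.3% of a knockout library and 32.4% to 62.7% of an intact one. HT replicates 2 and 3 and HC/HT replicate 2 had the lowest rank correlations with the other libraries. The labels also carry a library number, which runs from 1 to 7 in the knockout and from 9 to 17 in the intact libraries; if that number follows the order of handling, genotype and order cannot be told apart. Markers of the labelled tissue were present throughout: the 22 genes listed for valve interstitial cells and fibroblasts summed to 7370 to 19587 units in the knockout and 6092 to 21296 in the intact valves.

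Apoe itself (chr7:19696244-19701310) marked the 2 genotypes. In HC valves it stood at 12.3, 6.95, 5.98 and 2.15 units, and in HC/HT valves at 9.80, 7.54 and 5.98. In CON valves it stood at 1012, 1014, 619.7 and 398 units, and in HT valves at 609.1, 318.2, 56.6 and 383.6. Every knockout library lay below every intact one, and HT replicate 3, at 56.6 units, was the lowest of the intact valves. Averaged within transgene status, knockout minus intact was -5.78 on the log2 scale, and over 2450 exact permutation splits within that status the two-sided p was 0.000816. Among transgene carriers alone the difference was -4.89 with an exact permutation p of 0.0571, in a design of 35 splits whose smallest one-sided p is 0.0286.

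**Figure D1:**
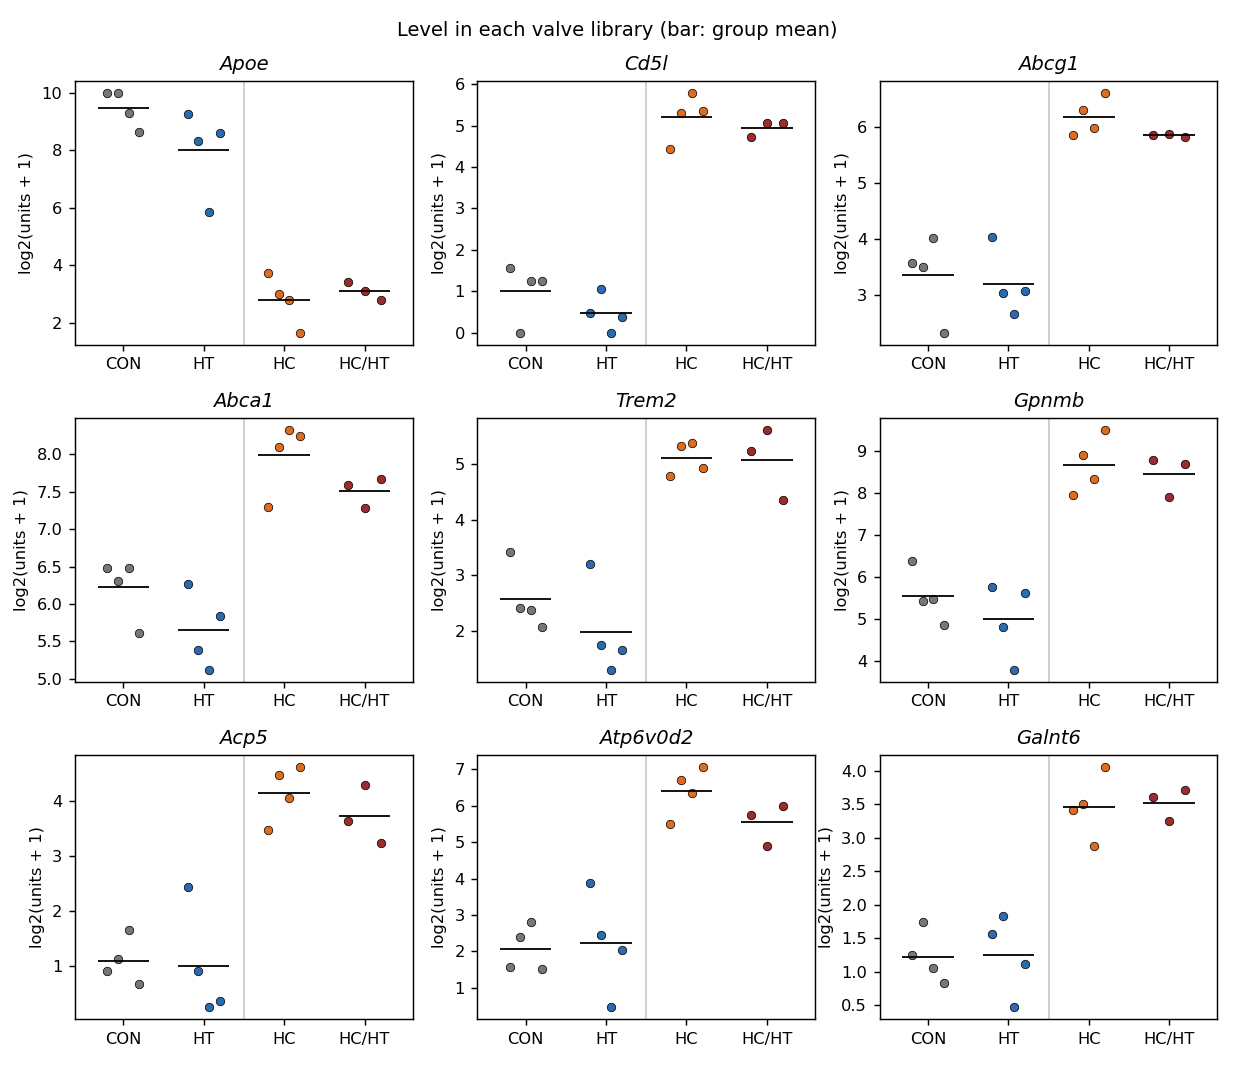
Level in each of the 15 libraries of Apoe and of the 8 genes with the smallest adjusted p once transcripts with provisional names, 7 of which fell with an adjusted p of 0.000132 or less, are set aside, as log2(units + 1) on the vertical axis, by group on the horizontal axis, with a bar at the group mean. The grey line parts the intact groups (CON, HT) from the knockout groups (HC, HC/HT). No intact point of these 9 genes lies within the range of the knockout points; Apoe is lower in the knockout and the other 8 are higher.

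Knockout valves held more RNA of genes typical of lipid-laden macrophages, among them Cd5l, Abcg1, Trem2, Gpnmb, Acp5 and Abca1. Across the 15004 genes tested, 213 were higher and 30 were lower in the knockout at a Benjamini-Hochberg adjusted p under 0.05 (limma, two-sided), 243 in all or 1.62% (1.42% higher, 0.200% lower). At an unadjusted p under 0.05 there were 1528 genes (10.2%). The median difference of those that rose was 1.41 on the log2 scale and that of those that fell -1.57, against 0.09 for all genes tested. Among the genes that rose, 24 did so by more than 2 on that scale, and 10 of those that fell did. All 7 knockout libraries lay above all 8 intact ones for 84 of the 213 genes that rose, where 0.673% of all tested genes showed that order. They lay below for 14 of the 30 that fell, against 0.120% of all tested. Calls and order come from the same 15 libraries, so called genes favour such an order by selection and the excess is no separate support. Counting either direction, 119 of all tested genes (0.793%) had genotypes that did not overlap. The balance of the calls moves with scaling: under median-of-ratios factors 194 rose and 69 fell (73.8% higher, against 87.7%), and under quantile normalisation 204 rose and 79 fell (72.1% higher). These scalings shift the median of all genes from 0.09 to -0.01 and -0.02. The count of calls was 91 without HT replicate 2, 99 without HC/HT replicate 1, 121 without CON replicate 2, 134 without HC replicate 2, 150 without HC/HT replicate 2 and 406 without HT replicate 1, and 71 genes (61 higher, 10 lower) passed in every one of 15 such fits.

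**Figure D2:**
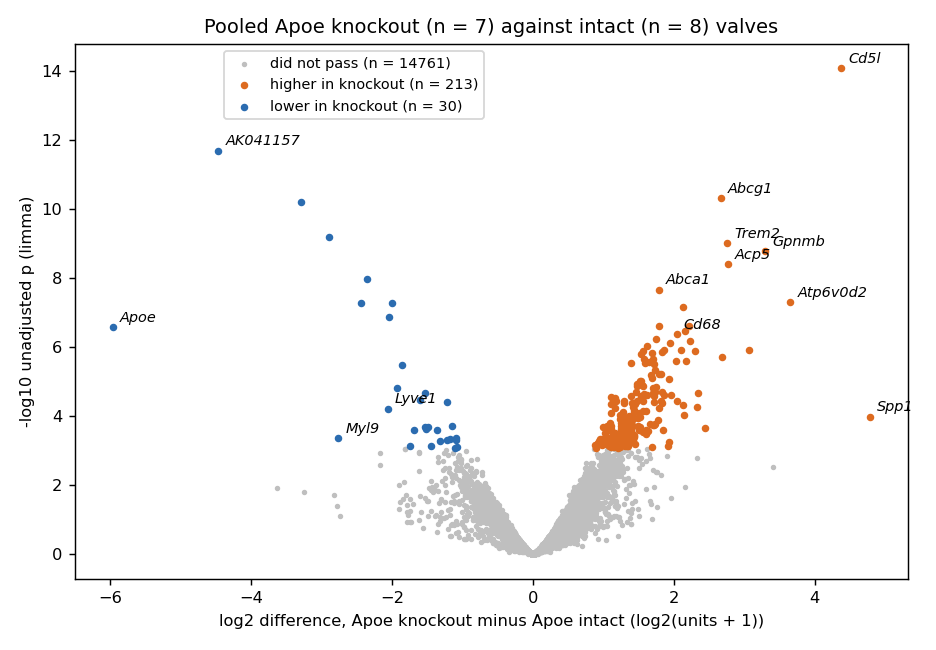
Each point is 1 of 15004 genes, with the log2 difference of knockout minus intact valves on the horizontal axis and -log10 of the unadjusted limma p on the vertical axis. Orange points mark the 213 genes that rose and blue points the 30 that fell; Cd5l stands at 4.37 and Apoe at -5.96.

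Cd5l, also called AIM, encodes a protein secreted by macrophages that supports their survival. It had the smallest p of all genes. HC valves held 20.5, 38.4, 54.3 and 39.97 units and HC/HT valves 25.4, 32.3 and 32.7, whereas CON valves held 1.96, 0, 1.37 and 1.37 and HT valves 0.392, 1.08, 0 and 0.294. The lowest knockout valve, HC replicate 1, was above the highest intact one, CON replicate 1. The difference was 4.37 ± 0.31 on the log2 scale (SE; limma adjusted p 1.24e-10). Because intact values are close to the pseudocount of 1 unit, this understates the ratio of the means, which were 34.8 ± 11.0 units (SD, n = 7) and 0.808 ± 0.734 (n = 8).

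Abcg1 (chr17:31057694-31117984) and Abca1 (chr4:53030789-53159988) encode transporters that move cholesterol out of cells to lipoproteins. Abcg1 stood at 57.1, 77.4, 61.7 and 96.2 units in HC, at 56.6, 57.7 and 55.4 in HC/HT, at 10.9, 10.3, 15.1 and 4.02 in CON and at 15.4, 7.15, 5.29 and 7.35 in HT. The 3 HC/HT valves were nearly level, and HC replicate 4 was the highest of all. Its difference was 2.67 ± 0.27 (adjusted p 2.37e-07). Abca1 stood at 156.3, 272.4, 319.1 and 303.4 units in HC and at 191.4, 154.1 and 202.5 in HC/HT, against 88.2, 78.1, 88.5 and 48.1 in CON and 75.8, 40.7, 33.8 and 56.2 in HT. No intact valve reached the lowest knockout valve, HC/HT replicate 2. Abca1 differed by 1.79 ± 0.24 (adjusted p 3.24e-05).

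Trem2 (chr17:48346401-48352276) encodes a lipid-sensing receptor of macrophages, and Gpnmb (chr6:49036518-49058182) a membrane glycoprotein that lipid-loaded phagocytes make. Trem2 stood at 26.6, 39.3, 40.7 and 29.3 units in HC and 36.5, 47.8 and 19.5 in HC/HT, and at 9.70, 4.31, 4.21 and 3.23 in CON and 8.23, 2.35, 1.47 and 2.15 in HT. The difference was 2.76 ± 0.32 (adjusted p 2.41e-06), with CON replicate 1 and HT replicate 1 the highest of the intact valves. Gpnmb was more abundant, at 244.2, 471.9, 322.3 and 715.7 units in HC and 437.3, 236.8 and 413.1 in HC/HT. Intact valves held 82.8, 42.0, 43.9 and 28.2 units of Gpnmb in CON and 53.0, 27.04, 12.9 and 47.9 in HT. The groups did not overlap, and the difference was 3.30 ± 0.33 (adjusted p 3.48e-06).

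With transcripts of provisional name set aside, Acp5, Atp6v0d2 and Galnt6 complete the 8 genes with the smallest adjusted p. Acp5, the tartrate-resistant acid phosphatase of osteoclasts and macrophages, stood at 10.1, 21.0, 15.6 and 23.3 units in HC and 11.4, 18.5 and 8.42 in HC/HT, and at 0.882, 1.18, 2.15 and 0.588 in CON and 4.41, 0.882, 0.196 and 0.294 in HT. HT replicate 1 was the highest intact valve and still lay below HC/HT replicate 3, and the difference was 2.77 ± 0.34 (adjusted p 7.44e-06). Atp6v0d2 encodes a subunit of the proton pump that acidifies lysosomes and the space under osteoclasts. It stood at 44.2, 102.7, 81.3 and 132.1 units in HC and 52.5, 28.9 and 63.2 in HC/HT, against 1.96, 4.31, 5.98 and 1.86 in CON and 13.8, 4.51, 0.392 and 3.13 in HT. HT replicate 1 was again the highest intact valve, and the difference was 3.65 ± 0.42 (adjusted p 6.19e-05). Galnt6 encodes an enzyme that starts O-linked sugar chains on proteins. It stood at 9.70, 10.4, 6.37 and 15.6 units in HC and 11.2, 8.52 and 12.1 in HC/HT, against 1.37, 2.35, 1.08 and 0.784 in CON and 1.96, 2.55, 0.392 and 1.18 in HT, with a difference of 2.12 ± 0.30 (adjusted p 7.3e-05).

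Of the 22 genes listed for lipid-laden macrophages, 14 rose and none fell, with a median difference of 1.59, where 1.42% of all genes tested rose. Spp1, which encodes the secreted phosphoprotein osteopontin, had the largest difference among genes that rose, 4.78 ± 0.82 (adjusted p 0.014). It stood between 140.5 and 2098 units in the knockout (median 381) and between 1.76 and 63.0 in the intact valves (median 14.3). The knockout valves spread widely, with HC replicate 3 the highest, and Spp1 lost its call without HT replicate 2, HC replicate 2 or HC/HT replicate 1 (largest adjusted p 0.0682). Lgals3, the sugar-binding lectin galectin-3 of macrophages, stood between 43.8 and 146.7 units against 3.72 to 34.3, and rose by 3.06 ± 0.41 (adjusted p 0.000666). Mmp12, the elastase of macrophages, had a median of 163.3 units against 28.1 and rose by 2.34 ± 0.40 (adjusted p 0.00508), but the groups overlapped because HT replicate 1 held 104 units. Plin2, which coats lipid droplets, rose by 1.70 (adjusted p 0.000711) and Fabp5, a fatty acid carrier, by 1.73 (adjusted p 0.00492). The cathepsin genes Ctsl, Ctsd and Ctsb, proteases of the lysosome, rose by 1.54, 1.64 and 1.51. Of the members that did not pass, the fatty acid receptor Cd36 differed by 0.23, Lpl by 0.73, the fatty acid carrier Fabp4 by -0.32 and the tetraspanin Cd9 by 0.28.

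Of 29 markers shared by most macrophages, 12 rose and none fell, with a median of 1.45, and 28 had a positive difference. Over all genes tested, 1.42% rose and 61.6% had positive differences. The 12 became 4 without CON replicate 2, 4 without HT replicate 2, 7 without HC replicate 2, 3 without HC/HT replicate 1, 6 without HC/HT replicate 2 and 21 without HT replicate 1, with 28 positive differences each time. Cd68, a glycoprotein of the macrophage lysosome, stood between 75.7 and 156.9 units in the knockout (median 107) and between 7.15 and 45.2 in the intact valves (median 27.8), and rose by 2.04 ± 0.30 (adjusted p 0.000317). Lyz2, the lysozyme of myeloid cells, stood between 1221 and 2602 units against 77.8 and 806.8, and rose by 2.13 ± 0.40 (adjusted p 0.00763). The groups did not overlap for either gene. Clec7a, the receptor dectin-1 for fungal glucan, rose by 2.18 ± 0.36 (adjusted p 0.00102) and Mpeg1, a pore-forming protein of phagocytes, by 2.04 (adjusted p 0.00664). Lyz2 and Mpeg1 lost their calls without HC/HT replicate 1, and Lyz1, a near-identical copy of Lyz2 whose reads the counting may split, rose by 2.15 (adjusted p 0.0128) and lost its call without that library, CON replicate 2, HT replicate 2 or HC replicate 2. Csf1r, the receptor that macrophages need to survive, differed by 0.82 and did not pass (adjusted p 0.208). Neither did Adgre1, which encodes F4/80 (1.15, adjusted p 0.321), nor Mrc1, the mannose receptor (0.18, adjusted p 0.947).

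The summed level of the macrophage list was 2961 to 6660 units in the knockout and 315 to 2536 in the intact valves, without overlap, and that of the lipid-laden list was 2684 to 6901 against 595 to 2024. HT replicate 1 was the highest intact library in both sums and HT replicate 3 the lowest. In whole valves a gain of macrophages and more RNA per macrophage cannot be told apart. With the mean log2 level of the macrophage list added to the fit as a term, a setting chosen after seeing the data, 22 genes passed, 5 of them higher. The 5 were Cd5l (3.99), Abcg1 (2.12), Gpnmb (2.50), Atp6v0d2 (2.64) and Galnt6 (2.05). That level nearly parts the genotypes, at 5.54 to 6.67 in the knockout and 2.81 to 5.64 in the intact libraries. With the term the median difference of all genes moved from 0.09 to -0.25. The fit can therefore hardly separate genotype from macrophage level, and whether the 5 genes rose beyond macrophage content was not tested. Without the 3 libraries of lowest rank correlation, likewise chosen after seeing the data, 77 genes passed and 59 of them were higher. The macrophage list then had 5 genes that rose and a median of 0.95, and the lipid-laden list 14 and a median of 1.48.

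**Figure D3:**
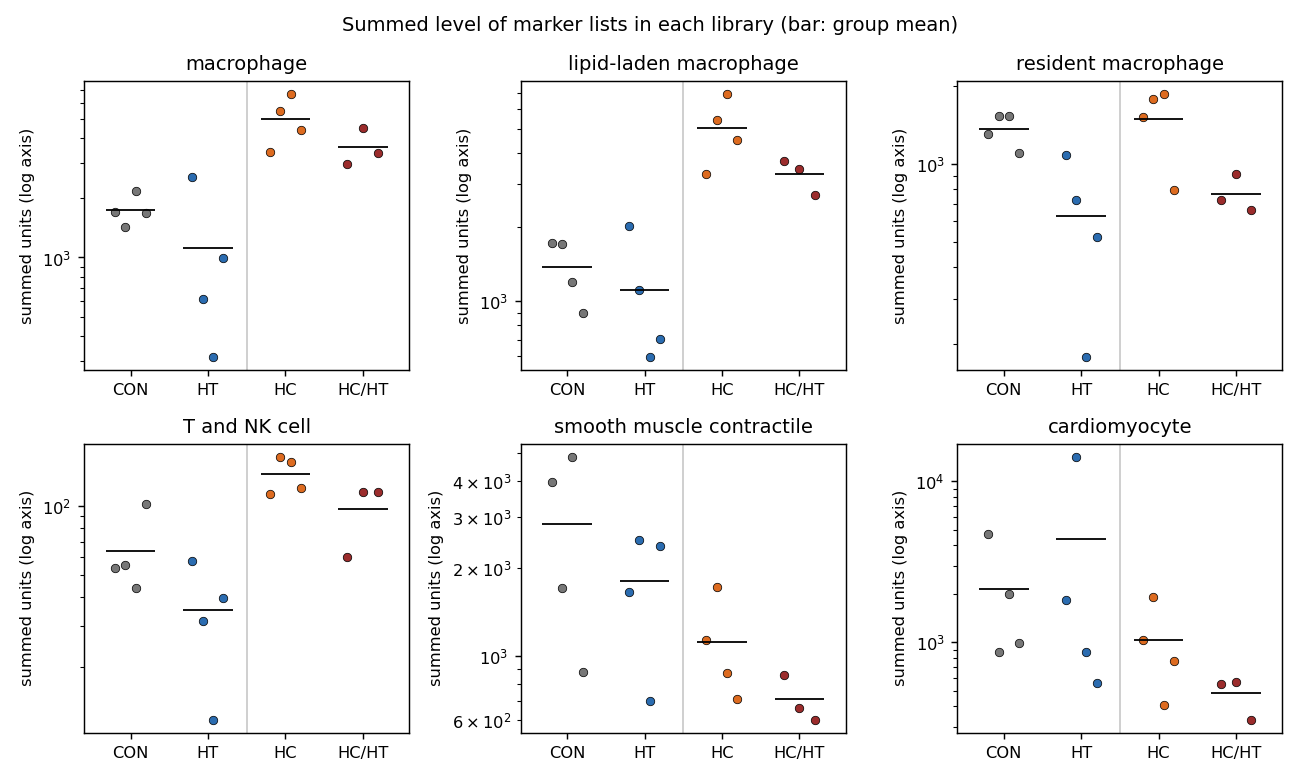
Summed units of 6 marker lists in each library, by group, on a log axis, with a bar at the group mean; the grey line parts intact from knockout groups. The macrophage and lipid-laden macrophage sums do not overlap between the 2 genotypes, and the sums of the other 4 lists do.

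Of 10 markers of resident tissue macrophages, none rose and 2 fell, with a median of -0.25, where 0.200% of all genes tested fell. Lyve1, a hyaluronan receptor of resident macrophages and lymphatic vessels, stood at 20.7, 20.4, 17.0 and 2.55 units in HC and at 0.392, 0.980 and 1.76 in HC/HT. Intact valves held 29.5, 33.5, 43.7 and 54.0 units in CON and 11.1, 21.4, 3.23 and 5.98 in HT. Knockout valves lay below intact ones within each transgene status, while the pooled groups overlapped. Lyve1 fell by 2.06 on the log2 scale (SE 0.41, adjusted p 0.00933), with a loss of the call without HC/HT replicate 1. In HC against CON alone it differed by -1.30 (limma adjusted p 0.936), and in HC/HT against HT by -2.47 (limma adjusted p 0.000535). Lyve1 is also 1 of 6 tested lymphatic endothelial markers, of which 5 had negative differences (median -0.58) and Lyve1 alone passed, so its fall is not particular to macrophages. Timd4, the phosphatidylserine receptor TIM-4, had a median of 0.490 units against 2.74 and fell by 1.36 (adjusted p 0.0244), a call lost without CON replicate 2, HT replicate 2 or HC/HT replicate 1. Cd163, Folr2 and F13a1 differed by -0.75, 0.56 and -0.38 and did not pass.

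Cholesterol handling was followed in separate lists for export and for synthesis. Where 1.42% of all genes tested rose, 5 of 17 genes of efflux and LXR targets did and none fell, with a median of 0.73. Beside Abcg1 and Abca1 these were Pltp, a phospholipid transfer protein of plasma (1.11, adjusted p 0.00712), Soat1, the enzyme that esterifies cholesterol for storage (1.09, adjusted p 0.0194), and Arl4c, a small GTPase (1.11, adjusted p 0.0233). The 5 became 3 without HT replicate 2, 2 without HC replicate 2 and 3 without HC/HT replicate 1. Pltp lost its call without HC replicate 2, and Soat1 without HT replicate 2, HC replicate 2 or HC/HT replicate 1. The LXR genes Nr1h3 and Nr1h2 differed by 0.48 and -0.02, and the LXR targets Srebf1 and Mylip by 0.45 and 0.42, none of which passed. Of 23 genes of cholesterol synthesis and uptake, none passed, with 22 positive differences (61.6% of all genes tested were positive) and a median of 0.69. The sum of that list was 1193 units in HC/HT replicate 1 and 741 in HC/HT replicate 2, 224 to 296 in the other 5 knockout valves and 146 to 550 in the intact ones. The median was 0.20 among mice without transgenes and 1.07 among transgene carriers.

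Lysosome and proton pump genes had positive differences in 29 of 29 cases, of which 5 passed, and their median was 0.67. Of all genes tested, 9241 (61.6%) had positive differences, and of the 45 cytosolic ribosomal protein genes 43 did, with none passing. Among females alone the lysosome genes were positive in 24 of 29 cases with 1 call, and the ribosomal protein genes in 1 of 45. Psap, the precursor of the saposins that help digest sphingolipids, stood between 296 and 608 units in the knockout and between 45.6 and 253 in the intact valves. It rose by 1.71 ± 0.29 (adjusted p 0.000963). Lipa, the acid lipase that frees cholesterol from its esters, had medians of 160 and 54.4 units and rose by 1.39 ± 0.24 (adjusted p 0.00109). The groups did not overlap for either gene. Gusb, a glucuronidase, rose by 1.06 (adjusted p 0.0215) and Atp6v1a, a pump subunit, by 0.92 (adjusted p 0.0413). The 5 became 3 without HT replicate 2, HC replicate 2 or HC/HT replicate 1 and 11 without HT replicate 1. Gusb passed in 12 and Atp6v1a in 6 of 15 omissions. Tfeb and Mitf, which encode transcription factors of the lysosome and bind CACGTG, differed by 0.03 and 0.19 and did not pass (adjusted p 0.995 and 0.901).

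Of 30 chemokine and cytokine genes, 7 rose and none fell, all 30 had positive differences, and the median was 1.29. Over all genes tested, 1.42% rose and 61.6% had positive differences. Il1rn, the antagonist of the interleukin-1 receptor, stood between 7.64 and 75.5 units in the knockout (median 16.0) and between 0 and 8.42 in the intact valves (median 1.27), and rose by 2.69 ± 0.43 (adjusted p 0.000857). Cxcl1, which attracts neutrophils, rose by 2.30 ± 0.38 (adjusted p 0.000674), Ccl9 by 1.46 (adjusted p 0.00492) and Cxcl16, a chemokine that is also a scavenger receptor, by 1.18 (adjusted p 0.00664). The ranges of the 2 genotypes overlapped for Il1rn, Cxcl1 and Ccl9 and were apart for Cxcl16. The 7 became 4 without HT replicate 2, 3 without HC/HT replicate 1 (where Cxcl16 was lost) and 12 without HT replicate 1. Ccl2, Il1b, Tnf and Il6 differed by 1.61, 1.03, 0.97 and 1.36 and did not pass (adjusted p 0.261, 0.554, 0.122 and 0.225). Csf1, the growth factor of macrophages, differed by 0.08.

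The complement and oxidative stress counts stand beside 1.42% of all genes tested that rose. Of 17 complement genes, 2 rose: C3ar1, the receptor for the fragment C3a (1.96 ± 0.35, adjusted p 0.00528), and C1qb (1.64 ± 0.36, adjusted p 0.0252). C3 itself differed by 1.36 ± 0.64 (adjusted p 0.512). Of 28 genes of oxidative stress, 5 rose. Among them were Ncf4 (1.43), Cybb (1.52) and Ncf1 (1.26), which encode parts of the phagocyte oxidase, and Hmox1, the haem-degrading enzyme (1.30, adjusted p 0.0154). Nox4, the oxidase of vessel wall cells, differed by -0.76 and did not pass (adjusted p 0.395). Of the oxidative stress genes, none passed without HT replicate 2 or HC/HT replicate 1, 1 without CON replicate 2 or HC replicate 2, and 3 without HC/HT replicate 2. C3ar1 was lost without HC/HT replicate 1, Ncf4 and Hmox1 without that library, HT replicate 2, CON replicate 2 or HC replicate 2, and C1qb and Cybb each without 6 libraries left out in turn.

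The lymphocyte and antigen-presentation lists had 1 call each, where 1.42% of all genes tested rose and 61.6% had positive differences. Of 13 T and NK cell markers, Il7r alone rose, from a median of 5.39 to 33.6 units (2.32 ± 0.44, adjusted p 0.00882), and all 13 differences were positive with a median of 0.93. The summed level of that list was 60.1 to 163.4 units in the knockout and 11.8 to 102.2 in the intact valves. Il7r lost its call without CON replicate 2 or HC/HT replicate 1. The genes Cd3e and Cd3g, whose products join the T cell receptor, differed by 1.17 and 1.00 and did not pass (adjusted p 0.444 and 0.335). Outside the list and chosen after its value was seen, Tcra, the T cell receptor alpha gene, rose by 1.69 ± 0.31 (adjusted p 0.00239) and passed in 15 of 15 omissions. Its level was low, with 2.06 to 6.37 units in the knockout and 0 to 2.25 in the intact valves, which overlap. Of 18 genes of MHC class II and antigen presentation, H2-DMb1 rose (1.23, adjusted p 0.0483), a call lost in 9 of 15 omissions. All 18 had positive differences, with a median of 0.81. H2-Aa and Cd74 differed by 1.19 and 1.07 (adjusted p 0.467 and 0.464). Of 4 tested B cell and plasma cell markers, Cd22, a lectin that dampens B cell receptor signals, rose by 2.23 ± 0.36 (adjusted p 0.000448), whereas Cd79b differed by 0.55 (adjusted p 0.849). The genotypes overlapped for Cd22, with 7.44 units in CON replicate 4 and 7.05 in HC/HT replicate 3. The summed level of the B cell and plasma cell list was 20.2 to 74.4 units in the knockout and 4.41 to 133.7 in the intact valves, highest in CON replicate 4.

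**Figure D4:**
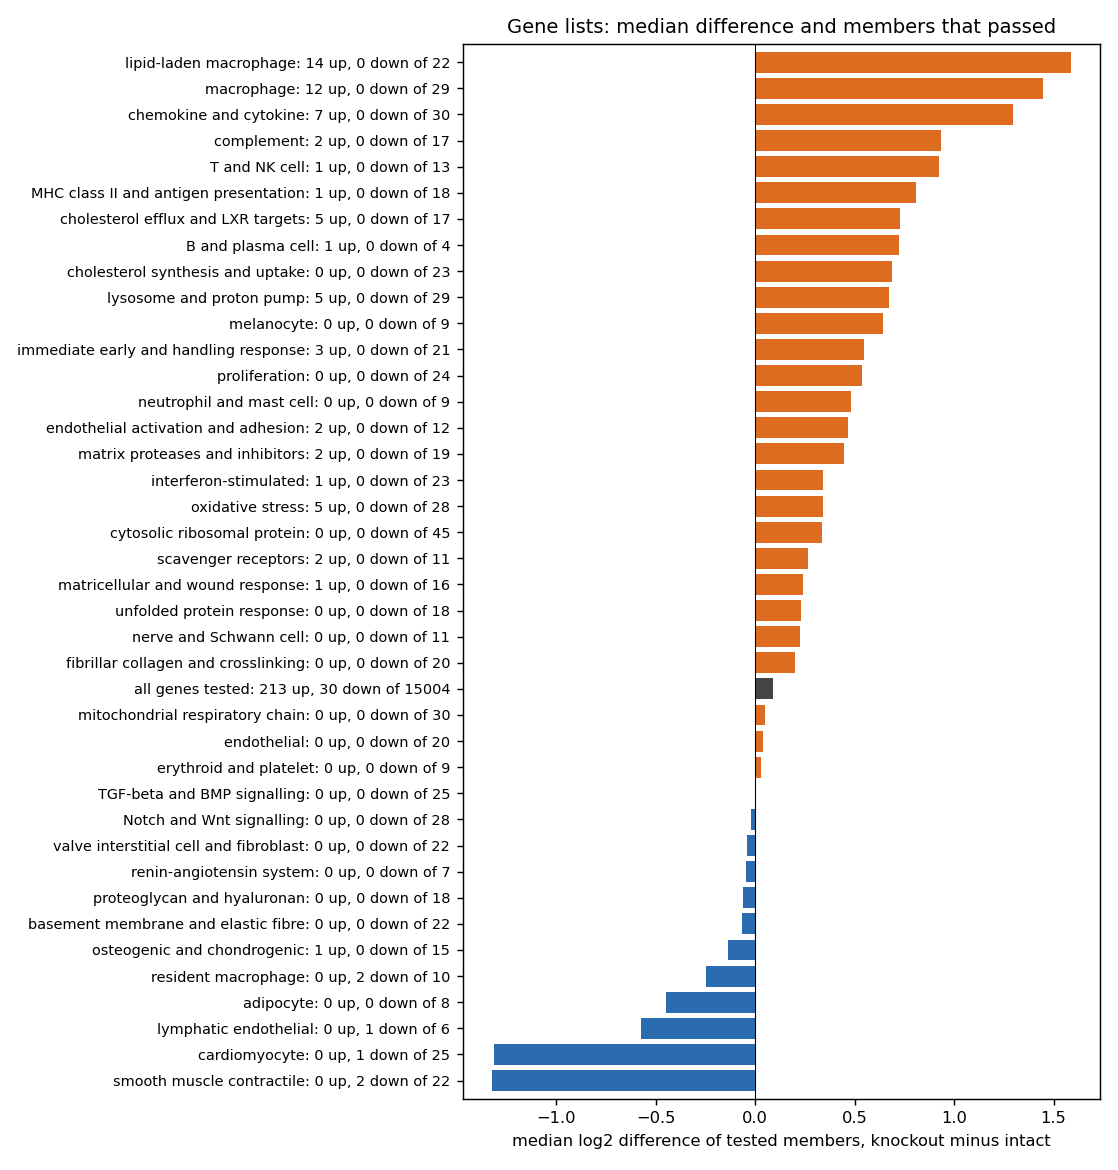
Median log2 difference (knockout minus intact, horizontal axis) of the tested members of 39 gene lists, with the number that rose, the number that fell and the number tested beside each name; the dark bar is the median of all genes tested, 0.09. Lipid-laden macrophage (1.59), macrophage (1.45) and chemokine lists (1.29) are at the top, and cardiomyocyte and smooth muscle lists (both -1.32) at the bottom.

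Endothelial and interstitial cells make up most of the leaflet. Of 20 endothelial markers none passed, and their median was 0.04, or -0.08 under median-of-ratios factors. Of 12 genes of endothelial activation, 2 rose: Selp, which encodes P-selectin, with 48.5 to 143 units against 23.5 to 42.3 (1.17 ± 0.24, adjusted p 0.00572), and Sele, E-selectin (1.33 ± 0.34, adjusted p 0.0379). The share of all genes tested that rose was 1.42%. Selp passed in every omission and the groups did not overlap, and Sele was lost in 9 of 15. Vcam1, the adhesion molecule for monocytes, stood between 364.7 and 792.4 units against 139.1 and 619.4 and did not pass (0.71 ± 0.31, adjusted p 0.396). Of 22 markers of interstitial cells and fibroblasts none passed, with a median of -0.04. Col1a1 differed by 0.02 (adjusted p 0.996), Col3a1 by 0.85 (adjusted p 0.373) and Postn, the matrix protein periostin, by -0.31 (adjusted p 0.838). Col3a1 stood between 333.3 and 2140 units in the knockout, with HC replicates 2 and 3 the highest, and between 193.3 and 601.5 in the intact valves. Of 15 genes of bone and cartilage formation Spp1 alone passed, and Runx2, the master factor of osteoblasts, differed by 0.66 (adjusted p 0.403). Tgfb1 differed by 0.17 (adjusted p 0.93).

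Contractile genes of muscle had mostly negative differences. Of 22 genes listed for smooth muscle, 2 fell and none rose, with 22 negative differences and a median of -1.32. Among all genes tested 0.200% fell, and 5763 of 15004 had negative differences. Pln stands in both this list and the cardiomyocyte list, so the lists are not wholly separate. Myl9, a myosin light chain of smooth muscle, stood at 18.0, 67.7, 18.9 and 5.49 units in HC and 7.25, 5.68 and 2.64 in HC/HT. In CON it stood at 173.8, 74.5, 229.6 and 108.9 units, and in HT at 66.8, 92.7, 12.05 and 102.2. HC replicate 2 was high among the knockout valves and HT replicate 3 low among the intact ones, so the groups overlapped. Myl9 fell by 2.76 on the log2 scale (SE 0.58, adjusted p 0.034) and Mylk, the kinase that phosphorylates it, by 1.44 (SE 0.36, adjusted p 0.0461). Acta2, smooth muscle actin, differed by -1.62 ± 0.91 and Myh11, its myosin heavy chain, by -3.63 ± 1.21, and neither passed (adjusted p 0.648 and 0.247). Myl9 was called in 5 of 15 omissions and Mylk in 3, and no gene of the list was called in 10 of the 15. Without CON replicate 4 the list had 7 calls, without HT replicate 3 or HC replicate 2 it had 3, and without HC replicate 4 it had 1. Among females 14 of 20 tested genes fell (median -1.79), among transgene carriers 11 of 20 (median -1.52) and among mice without transgenes none of 22 (median -0.78). The sum of the list was 601.4 to 1726 units in the knockout and 697.2 to 4843 in the intact valves.

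Of 25 cardiomyocyte genes, Tcap alone passed, where 0.200% of all genes tested fell. Tcap, a titin-binding protein of the Z disc, fell by 1.93 (SE 0.38, adjusted p 0.00387), and the median of the list was -1.32. The sum of the cardiomyocyte genes was 330.7 to 1921 units in the knockout and 558.2 to 14180 in the intact valves, with HT replicate 2 the highest. Without that library the median was -0.61. Among mice without transgenes the median was -0.11 with no gene lower, among transgene carriers -1.91 with 8 lower, and among females -2.18 with 7 lower. Heart muscle in the piece taken was not measured in another way, and its part in the muscle results was not tested.

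Of the 30 genes that fell, 11 have accession-like or provisional names. AK041157 stood between 0 and 1.67 units in the knockout and between 15.2 and 84.3 in the intact valves, and fell by 4.46 (SE 0.37, adjusted p 1.49e-08). AK039360 (-3.29), AK048672 (-2.89), DQ687153 (-2.36), Gm3893 (-2.43), 4930578G10Rik (-2.0) and DQ540451 (-2.04) fell too and stood at or under 1.08 units in every knockout library. Gm3893 is a transcribed pseudogene (chr4:42089373-42092930), and 4930578G10Rik is listed at 0 in all 7 knockout libraries. AK041157, AK039360, AK048672 and Gm3893 met the filter on low values only through their intact libraries. DQ687153, DQ540451 and 4930578G10Rik fall outside the rule for named genes and were chosen after their values were seen. Among named genes, Vmn2r29, a vomeronasal receptor gene, fell by 1.54 (adjusted p 0.00517), Lrrtm3, a synaptic adhesion gene, by 1.31 (adjusted p 0.037), and C5ar2, a second receptor for the complement fragment C5a, by 1.22 (adjusted p 0.0369). The knockout libraries lay below the intact ones for all 3, while Lrrtm3 and C5ar2 were lost in 9 and 8 of 15 omissions and Vmn2r29 without HC/HT replicate 1.

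Around Apoe on chromosome 7, 41 other genes within 1 Mb were tested and 2 passed, both higher: Gemin7 (1.30, adjusted p 0.0445), whose start lies 0.131 Mb before that of Apoe, and Igsf23 (1.23, adjusted p 0.0365), 0.241 Mb after it. Gemin7 passed in 4 and Igsf23 in 6 of 15 omissions. Within 20 Mb, 13 of 350 tested genes passed, 11 higher and 2 lower. That is 4.88% within 1 Mb and 3.71% within 20 Mb, beside 2.32% of the 1036 genes tested on chromosome 7 and 1.62% of all genes tested. The chromosome 7 share includes Apoe and these 13 genes. Chromosomes 1 and 10 had shares of 2.85% and 2.41%. The 2 lower genes within 20 Mb were Vmn2r29 and C5ar2, and the 11 higher ones included Pld3, Zfp36 and Cd22, all described in other paragraphs. The paired immunoglobulin-like receptor genes Pirb, Pira1, Pira2 and Lilra6 are also among the 11 and lie next to each other, and reads of such near-identical copies may be split between them. Pirb, an inhibitory receptor of myeloid cells, stood between 32.9 and 60.2 units against 8.23 and 28.9, and rose by 1.79 (adjusted p 0.000216).

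The pooled difference was set beside the differences in mice without transgenes (HC minus CON) and with them (HC/HT minus HT), which share no samples. A test of whether the 2 differ, fitted in limma as an interaction, passed for none of 15004 genes, with 207 genes (1.38%) at an unadjusted p under 0.05 and none of the 243 called genes among them. The smallest unadjusted p belonged to AK169509 (0.000591, adjusted 1.00), followed by Acan and Tyrp1. Both separate fits kept the 15004 genes of the pooled fit. In HC against CON alone 48 genes passed (0.320%), 39 of them higher. All 48 had the same direction in HC/HT against HT, where 70.8% of all genes were above 0, and 37 of the 48 passed there too. In HC/HT against HT alone 221 genes passed (1.47%), 146 of them higher; 205 of these had the same direction in HC against CON, where 42.1% of all genes were above 0, and the 37 shared genes are 37 of this 221. Of the 243 genes of the pooled comparison, 34 passed in both alone and 121 in neither alone.

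**Figure D5:**
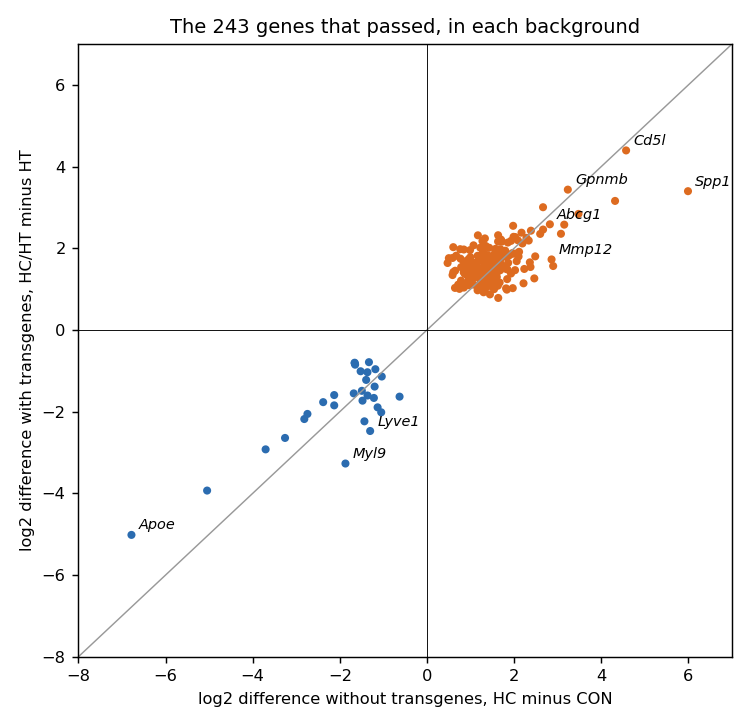
Each point is 1 of the 243 genes that passed the pooled comparison, with the log2 difference HC minus CON on the horizontal axis and HC/HT minus HT on the vertical axis; the diagonal marks equality. All points lie in the upper right or lower left, which the pooled test itself favours, and Spp1 is at 5.99 and 3.40.

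For single genes the 2 differences stood as follows. Cd5l differed by 4.57 without and 4.39 with the transgenes, Abcg1 by 2.82 and 2.59, Trem2 by 2.66 and 3.00, and Gpnmb by 3.23 and 3.43. Abca1 differed by 1.78 and 1.83, Cd68 by 2.02 and 2.27, and Lyz2 by 1.98 and 2.55, and each of these 7 genes passed in both. Spp1 differed by 5.99 (adjusted p 0.318) and 3.40 (adjusted p 6.66e-13), Mmp12 by 2.86 and 1.73, and Myl9 by -1.87 (adjusted p 0.109) and -3.27 (adjusted p 1.63e-10). These limma p-values come from 8 libraries without and 7 with the transgenes. Their variance is drawn in part from other genes, so the p-values do not rank how firm the 2 differences are. No interaction passed for these genes, which does not show that the 2 differences are equal.

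How firmly a gene is placed differs across the list. Of the 59 named genes that passed, 28 passed in all 15 fits with 1 library left out. The losses were most frequent without HC/HT replicate 1 (30 genes), HT replicate 2 (23), CON replicate 2 (19) and HC replicate 2 (17), and Atf3, Zfp36, Ier3, Oas2, Olr1 and Gusb were among them. CON replicate 2, HC replicate 2 and HC/HT replicate 1 were each the only library of their sex in their group. Across 32 alternative settings, which leave aside the macrophage term, 24 genes passed wherever they could be fitted, 16 of them higher. Those 16 were Abca1, Abcg1, Acp5, Adam8, Atp6v0d2, Cd5l, Cd68, Clec7a, Gpnmb, Il1rn, Lgals3, Mmp12, Pirb, Pld3, Slc11a1 and Trem2. Adam8, a membrane protease of leukocytes, rose by 2.16 ± 0.33, Slc11a1, a metal transporter of the phagosome, by 1.79, and Pld3, a nuclease of the lysosome, by 1.74. Apoe and 7 of the transcripts with provisional names named above were the 8 that fell in all of them.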

How the data were processed

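Libraries were made from total RNA of valves, amplified from 1 ng, per the labels' protocols. The submitters' processing notes name Bowtie 1.0.1, SAMtools 0.1.9, FastQC 0.11.2, the package edgeR and the build mm10, without saying which step set the scale. What the authors deposited is a score: normalised counts that the authors rounded to whole numbers. Whole reads could not be recovered, so depth is unknown beyond its relative size and no counting interval is given. All values were multiplied by 0.0979537. Names could be matched to a current symbol for 17944 rows, to an older one for 798 and to neither for 2250; positions are RefSeq's on GRCm38.p6 (mm10), and 51 of 71 named genes had a promoter there.

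A gene was tested where 4 or more libraries held 1 unit or more. The fit used limma 3.58.1 (R 4.3.3) on log2(value + 1), with Apoe status, transgene status and sex as terms and eBayes with trend and robust; p-values were Benjamini-Hochberg adjusted over 15004 genes. The fit was tested on simulated data. The named genes are, in each direction, the largest differences without overlap (15 at most, and 4 at most with provisional names), 4 passing members at most of each of 39 lists, 16 genes named in any case and 3 from the interaction. Some of these are not reported here. Other list members and genes given by value were chosen after their values were seen. Members, lists and rules were chosen with earlier results of these data known. Lists are described by counts and medians beside those of all genes, with no list test. Alternatives were 2 other scalings, removal of the 4 top rows, pseudocounts of 0.25 and 4, no filter and a filter at 5, dropping or adding terms, array weights, an adjusted p under 0.1, subsets of mice and each library left out.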

Additional observations from a re-analysis of the deposited data

Results flagged for a closer look

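Within the 7 knockout or 8 intact libraries, 6 of 142 combinations of named gene and genotype had a library far from the others by Dixon's ratio, and chance gives about 1 in 20. Apoe in HT replicate 3, at 56.6 units, was the lowest intact library, and Myl9 in the same library, at 12.05 units, was too. Tgfb1 in HT replicate 2 stood at 2.74 units, below the other intact libraries. Among the knockout libraries, Gusb in HC/HT replicate 3 was low at 49.6 units, C5ar2 in HC replicate 3 was low at 1.08 units, and Gm3893 in HC replicate 4 was high at 1.08 units.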

How the results depend on the processing

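The 243 calls became 139 with no filter, 366 without the sex term, 589 with array weights and 47 in mice without transgenes alone. For the 47 the filter was applied anew to those mice, which left 14314 genes, whereas the 48 calls of HC against CON given above keep 15004. Leaving out 1 library gave 91 (without HT replicate 2) to 406 (without HT replicate 1). Chosen after seeing the data, leaving out the 3 libraries of lowest correlation gave 77, and the macrophage level as a term gave 22. At the same threshold the other planned settings gave 196 to 328, and an adjusted p under 0.1 gave 347. The interaction had 0 calls in each setting fitted. In transgene carriers alone the Apoe difference of -4.89 missed the threshold of the exact permutation test (p 0.0571, in 35 splits), though every HC/HT library lay below every HT library. Limma gave -5.02 there (adjusted p 1.81e-28), and -5.96 (adjusted p 0.000216) over all 15 libraries. The limma p among carriers uses a variance drawn in part from other genes, so it is not stronger evidence than the exact p.

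Replicate numbers did not clearly pair the libraries. Of 21 same-number pairs, 8 had correlated deviations over 0.1 (r from -0.125 to 0.275). The median r was 0.072 in same-number pairs and -0.070 in other pairs, and 4 of 15 libraries correlated best with their own number. The replicate block gave 328 calls and lost Lyz2, Ctss, Cybb, C1qb, Myl9 and Mylk.

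Genes that did not pass changed sign in places; the cause was not tested. Acan gave -0.11 (median-of-ratios, quantile), -0.057 (without the 4 top rows), -0.037 (pseudocount 0.25), -1.28 (transgene carriers), -0.71 (females), -0.30 (macrophage term) and -0.43 to 0.30 in omissions. Col1a1 gave -0.11 (median-of-ratios), -0.066 (quantile), -0.036 (without the 4 top rows), -0.014 (no sex term), -0.00394 (replicate block), -0.12 (transgene carriers), -0.25 (females), -0.16 (without the 3 libraries), -0.56 (macrophage term) and -0.19 to 0.22 in omissions. Tgfb1 gave -0.10 (array weights), -0.097 (without the 3 libraries), -0.21 (mice without transgenes), -0.060 (macrophage term) and -0.11 to 0.36 in omissions. AK169509 gave 1.08 (transgene carriers), 0.53 (females) and -0.50 to 0.16 in omissions. With the macrophage term Col3a1 gave -0.076 and Tyrp1 -0.23. Depth is known only in relative terms, so no detection limit is given for values near 0.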

Other observations

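Several groups outside the cholesterol and inflammation lists had no call or 1 call, and the immediate early genes had 3. Of 24 proliferation genes none passed, although 22 had positive differences (61.6% of all genes tested did) with a median of 0.54. Ccnb2, a mitotic cyclin, differed by 1.09 (limma adjusted p 0.0996) and Mki67 by 0.84 (adjusted p 0.181). Of 23 interferon-stimulated genes Oas2 alone rose (1.19, adjusted p 0.0363), with a call lost in 7 of 15 omissions. Of 20 fibrillar collagen and crosslinking genes none passed; Lox, the enzyme that crosslinks collagen, differed by 1.42 (adjusted p 0.194) and Col11a1 by -1.21 (adjusted p 0.0698). Of 21 immediate early genes, which tissue handling can raise, Atf3, Zfp36 and Ier3 rose by 1.34, 1.02 and 1.11, where 1.42% of all genes tested rose. Positive differences were seen in 20 of the 21, with a median of 0.55. The sum of the list was 580.9 to 1809 units in the knockout and 383.8 to 1031 in the intact valves.

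Genes outside the lists that rose included Csf2rb, the shared receptor chain of interleukin-3 and GM-CSF (1.56, adjusted p 0.000674), Abcc3, an organic anion exporter (1.95, adjusted p 0.000495), and Ucp2, a mitochondrial carrier (1.11, adjusted p 0.00571). Genes that fell included Tbx5, a transcription factor of the heart (-1.54, adjusted p 0.0218), Kcnj5, a potassium channel (-1.60, adjusted p 0.00664), and Bmp3 (-1.69, adjusted p 0.0245). Bmp3 passed in 9 of 15 omissions, Tbx5 in 12, Kcnj5 in 13, and Ucp2 in 14. These 6 genes were chosen after their values were seen.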
